A study of Mus musculus with 10 samples.

Results

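The genes examined were the regulators and partners of NRF2, 10 in all, listed by symbol as known parts of the pathway, with earlier results of these data already known: Nfe2l2 and Nfe2l1, Keap1 and Cul3, Sqstm1, Bach1 and Bach2, and the small Maf genes Mafg, Mafk and Maff. All 10 were found among the 47729 genes of the count table, and all 10 had enough counts to be tested. RNA came from the retinal pigment epithelium (RPE), the pigmented layer under the photoreceptors, of CD1 mice, a wild-type strain, killed at postnatal day 40. In each of 5 mice, the control eye was injected with AAV-Best1-GFP alone, and the fellow Nrf2 eye with AAV-Best1-GFP together with AAV-Best1-Nrf2. AAV is an adeno-associated virus used as a gene carrier, Best1 is a human promoter that is active in the RPE, and the delivered sequence is a human Nrf2 cDNA. All eyes thus carried the GFP vector. The Nrf2 eyes carried more vector than the control eyes, so that the added vector and the Nrf2 it encodes cannot be told apart. The 10 libraries held 12298404 to 27310638 counts each. Levels are given as CPM, the counts of a gene scaled by the total of its library, and differences as the fitted log2 fold change of Nrf2 over control eyes with the standard error (SE) of the 5 within-mouse differences. Adjusted p-values are from edgeR's quasi-likelihood test with the mouse as a block, with Benjamini-Hochberg adjustment over 16362 genes and a threshold of 0.05.

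NRF2, the product of Nfe2l2, is a basic leucine zipper factor that binds antioxidant response elements as a dimer with a small Maf protein and turns on genes of glutathione synthesis, quinone reduction and heme breakdown. Its amount is set mainly by degradation. KEAP1 is a sensor with reactive cysteines that presents NRF2 to a CUL3 ubiquitin ligase, and stress or competing KEAP1 ligands let NRF2 escape. One such ligand is p62, the autophagy receptor encoded by Sqstm1. BACH1 and BACH2 also dimerize with small Maf proteins and repress the same elements, and heme releases BACH1 from them. The RPE is exposed to light and oxidized lipids and relies on this pathway for its defense.

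Of the 10 genes, 4 were higher in Nrf2 eyes at the threshold and 0 were lower. The 4 were Nfe2l2, Sqstm1, Bach1 and Mafg. Nfe2l2 is the gene that the vector delivers, and reads of the vector may be counted with it. It enters every count of higher genes and the median given below, so these are not counts of the pathway's response alone. Among all tested genes, 3.6% (589) were higher and 2.73% (447) were lower by the same test. Keap1, Mafk and Maff had positive fold changes, Cul3 and Bach2 were near 0, and Nfe2l1 was negative. The count of 0 lower genes is from edgeR. At an unadjusted p under 0.05, 5 genes were higher and 1, Nfe2l1, was lower, against 9.58% and 9.53% of all tested genes. DESeq2 called 5 higher and 0 lower, against 5.23% and 3.69% of the 20212 genes to which it gave an adjusted p. The median log2 fold change of the 10 genes was 0.46, against -0.01 over all tested genes. The groups did not overlap in CPM for 3 of the genes, Nfe2l2, Keap1 and Sqstm1, all higher in Nrf2 eyes, against 3.87% of all tested genes with every Nrf2 eye above every control eye and 2.41% with every Nrf2 eye below. In 5 of 5 mice, 5 of the genes were higher in the Nrf2 eye, against 9.23% of tested genes, and 1 was lower, against 10.9%.

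**Figure D1:**
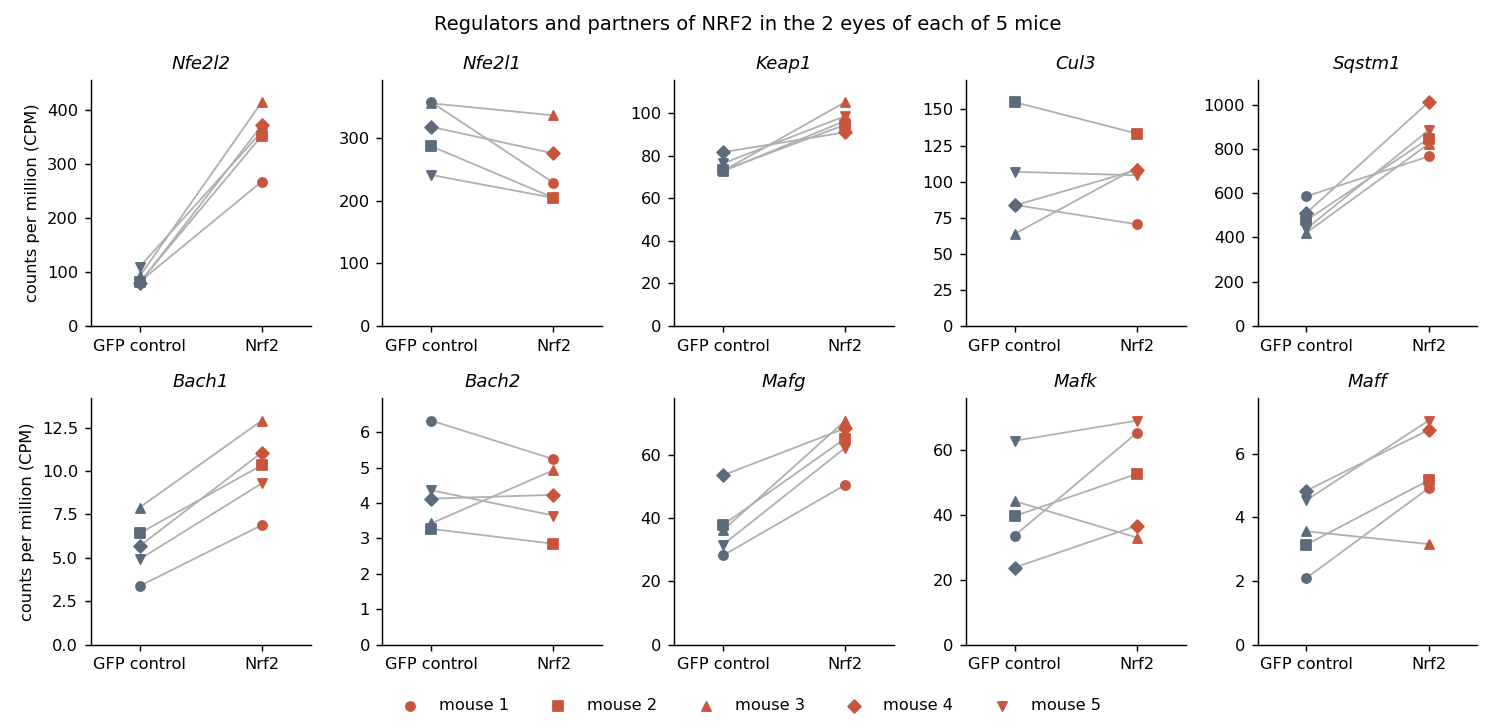
Each panel shows 1 gene, with CPM on a linear axis from 0, the GFP control eye on the left, the Nrf2 eye on the right and a line for each of the 5 mice. The lines of Nfe2l2, Keap1, Sqstm1, Bach1 and Mafg all rise, the lines of Nfe2l1 all fall, and those of Cul3, Bach2, Mafk and Maff run both ways.

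The promoters are shown first, because NRF2 acts through a short DNA element. Whether this element bears on the changes was not tested. The core of the antioxidant response element, TGACNNNGC, was searched on both strands in the RefSeq windows from 250 bases before to 50 bases after each annotated start (GRCm38.p6). It was found in 12.4% of all 32851 windows, and in at least 1 window of 14% of the 27025 genes that have one. The 10 genes had 16 windows, of which 4 held a match, 1 each in Nfe2l2, Mafg, Maff and Mafk. Of the 4 called genes, Nfe2l2 and Mafg had it, and the windows of Sqstm1 and Bach1 did not. The AP-1 site TGACTCA, which partly overlaps the core in letters, was in 5.2% of all windows and in 0 of the 16. The sequences below are those with a match, 5′ to 3′ along the gene, with the matched letters in capitals. Those of Nfe2l2 and Mafg run from 250 bases before the RefSeq start up to the first annotated start, and those of Maff and Mafk are the match with the bases around it.

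Nfe2l2 (chr2:75704664-75704913, minus strand): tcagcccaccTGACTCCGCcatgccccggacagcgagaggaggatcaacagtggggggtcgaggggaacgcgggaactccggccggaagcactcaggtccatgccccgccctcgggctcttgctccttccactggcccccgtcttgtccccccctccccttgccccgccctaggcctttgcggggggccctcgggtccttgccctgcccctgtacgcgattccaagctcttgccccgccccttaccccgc
Mafg (chr11:120633601-120633797, minus strand): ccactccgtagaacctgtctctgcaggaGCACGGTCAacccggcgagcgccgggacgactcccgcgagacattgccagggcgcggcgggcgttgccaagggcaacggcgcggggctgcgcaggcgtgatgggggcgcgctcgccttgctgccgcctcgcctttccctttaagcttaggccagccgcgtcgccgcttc
Maff (chr15:79346499-79346527, plus strand): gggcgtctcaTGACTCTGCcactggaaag
Mafk (chr5:139791513-139791535, plus strand): gatcccggaaGCGGTGTCAgtac

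The match lay at -240 to -232 relative to the start in Nfe2l2, at -222 to -214 in Mafg, at -112 to -104 in Maff and at -13 to -5 in Mafk. It read along the gene in Nfe2l2 and Maff, and on the opposite strand in Mafg and Mafk. The Mafk match lies after the start of the GENCODE gene, which is upstream of the RefSeq start. These matches describe letters, not binding. The vector has the Best1 promoter, so the Nfe2l2 promoter shown is that of the mouse's own gene.

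Nfe2l2 (ENSMUSG00000015839, chromosome 2, 75675513 to 75704641, mm10) was higher in all Nrf2 eyes. Mice 1 to 5 had 81.7, 80.8, 91.9, 79.3 and 110 CPM in the control eye, and in their Nrf2 eyes it was at 267, 352, 414, 371 and 360 CPM. The lowest Nrf2 eye was thus above the highest control eye, and mouse 1 gave the lowest Nrf2 value. The log2 fold change was 1.97 (SE 0.11, adjusted p = 0.000299), a 3.93-fold difference, and the within-mouse difference ran from 1.62 in mouse 5 to 2.19 in mouse 3. The counts behind these values were 1311 to 11019 per library. Reads of the human sequence that align to the mouse gene are counted here with reads of the mouse gene, and the table does not separate them.

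Nfe2l1 (ENSMUSG00000038615, chromosome 11, 96817414 to 96829968) encodes NRF1, the relative of NRF2 that is anchored in the endoplasmic reticulum and keeps up proteasome genes. It was lower in the Nrf2 eye of all 5 mice but did not pass the threshold. Its control eyes were at 357, 287, 355, 318 and 241 CPM and its Nrf2 eyes at 228, 205, 336, 275 and 204 CPM. The groups overlapped: the Nrf2 eyes of mice 3 and 4 were above the lowest control eye, and mouse 3 had the least difference. The fitted log2 change was -0.35 (SE 0.09, adjusted p = 0.121).

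Keap1 (ENSMUSG00000003308, chromosome 9, 21229730 to 21239361), the adaptor that hands NRF2 to the ligase, was at 72.6, 73.0, 72.8, 81.6 and 76.3 CPM in control eyes. In Nrf2 eyes it was at 96.3, 94.4, 105, 90.9 and 98.5 CPM. The groups were narrow and did not overlap, at 75.2 ± 3.86 and 97.0 ± 5.29 CPM (SD, n = 5 each), a 1.28-fold difference. On the log2 scale the fitted difference was 0.35 with an SE of 0.08 and did not pass (adjusted p = 0.0875), with the least difference in mouse 4 (0.09) and the most in mouse 3 (0.55). DESeq2 with the block (adjusted p = 0.0390) and edgeR without it (adjusted p = 0.0479) placed Keap1 under the threshold. An antisense gene, Gm16754, shares 510 bases of exon with Keap1 but held 187 counts over all libraries, against 17071 for Keap1.

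Cul3 (ENSMUSG00000004364, chromosome 1, 80264923 to 80340480), the scaffold of the ligase, had no common direction. It was at 83.9, 155, 63.9, 83.5 and 107 CPM in control eyes and at 70.4, 133, 110, 108 and 104 CPM in Nrf2 eyes. Mouse 2 was the highest of either group, mice 3 and 4 went up and the other 3 went down. The fitted log2 change was 0.11 (SE 0.20, adjusted p = 0.814), and it was 0.0011 without mouse 3 and 0.24 without mouse 2.

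Sqstm1 (ENSMUSG00000015837, chromosome 11, 50199366 to 50210827), the p62 gene, was the second called gene by p-value. Its control eyes were at 586, 478, 421, 510 and 440 CPM and its Nrf2 eyes at 766, 847, 823, 1012 and 884 CPM. All Nrf2 eyes lay above all control eyes. Mouse 1 had the highest control eye and the lowest Nrf2 eye. Fitted over all mice, the rise was 0.82 on the log2 scale with an SE of 0.09, or 1.76-fold (adjusted p = 0.00836), with within-mouse differences of 0.46 in mouse 1 and 0.81 to 0.98 in the other 4. Mrnip, on the opposite strand, shares 580 bases of exon but held 523 counts in all libraries together, against 132351 for Sqstm1.

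Bach1 (ENSMUSG00000025612, chromosome 16, 87698945 to 87733346), the heme-sensing repressor, rose in every mouse from a low level. It was at 3.37, 6.41, 7.89, 5.67 and 4.91 CPM in control eyes and at 6.88, 10.3, 12.9, 11.1 and 9.29 CPM in Nrf2 eyes. The groups overlapped, since the control eye of mouse 3 exceeded the Nrf2 eye of mouse 1, but the order of the mice was nearly kept and the rise within each mouse was close to the same. The fitted log2 change was 0.84 (SE 0.07, adjusted p = 0.0245), and the differences of single mice ran from 0.67 to 1.08. These values rest on 66 to 343 counts per library. The call was lost without any 1 of the 5 mice (adjusted p = 0.0602 to 0.0746, log2 fold change 0.82 to 0.93), without the block (adjusted p = 0.122, log2 fold change 0.82) and with rod RNA as a covariate (adjusted p = 0.0933, log2 fold change 0.85).

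Bach2 (ENSMUSG00000040270, chromosome 4, 32238804 to 32586108), the relative best known from lymphocytes, was low and without direction. It was at 6.32, 3.27, 3.42, 4.12 and 4.36 CPM in control eyes and at 5.24, 2.85, 4.93, 4.23 and 3.64 CPM in Nrf2 eyes. The groups overlapped almost entirely, and after scaling, mouse 3 was the one mouse with a higher level in the Nrf2 eye. The fitted log2 change was -0.05 (SE 0.15, adjusted p = 0.950), from 49 to 131 counts per library. The 5 B cell markers summed to at most 1.83 CPM in any library, with Pax5 at or under 3 counts in each, and the 6 T cell markers to at most 14.5 CPM. The part of lymphocytes in the Bach2 level was not tested. The median sum of the T cell markers was 1.22 CPM in control and 2.60 CPM in Nrf2 eyes, and it was higher in the Nrf2 eye of 5 of 5 mice.

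**Figure D2:**
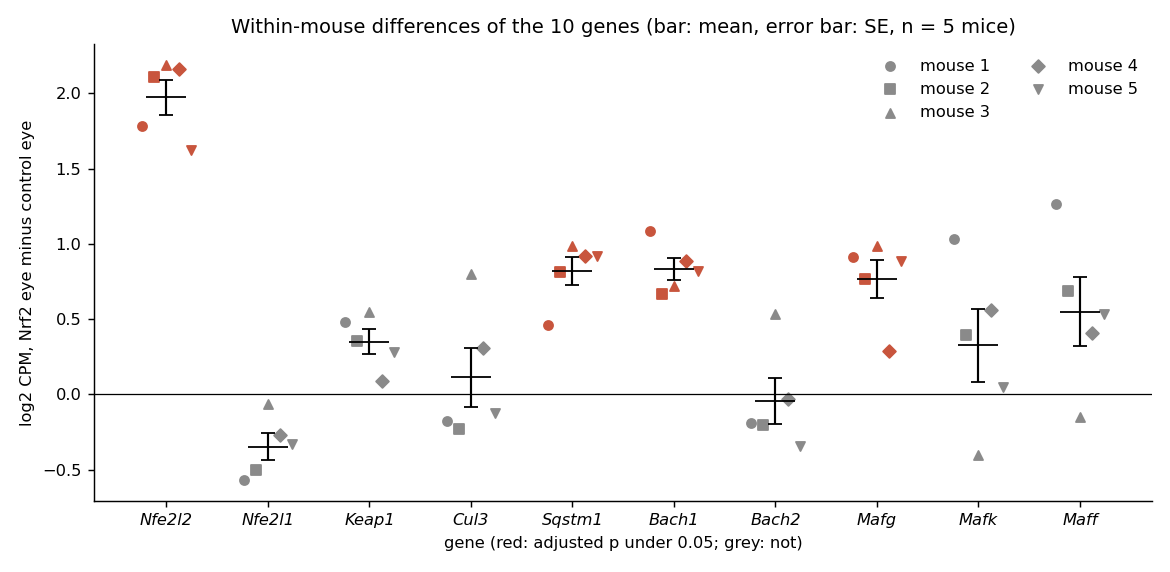
The vertical axis gives the difference in log2 CPM between the Nrf2 and the control eye, with 1 point for each of the 5 mice, a bar at the mean and its SE. Points of the 4 called genes are red and all lie above 0. Keap1 is above 0 in every mouse and Nfe2l1 below 0 in every mouse, but both are grey, and mouse 3 is the lowest for Mafk and Maff and the highest for Cul3 and Bach2.

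Mafg (ENSMUSG00000051510, chromosome 11, 120625117 to 120633600) was the small Maf gene that passed the threshold. It was at 28.3, 38.0, 36.2, 53.7 and 31.7 CPM in control eyes and at 50.6, 65.4, 71.0, 68.6 and 62.4 CPM in Nrf2 eyes. The control eye of mouse 4 was the one that reached into the range of the Nrf2 eyes, and this mouse had the least difference, 0.29, against 0.77 to 0.99 in the other 4. The rise was 0.77 on the log2 scale, or 1.71-fold, with an SE of 0.13 (adjusted p = 0.0124). Sirt7, on the same strand, shares 124 bases of exon with Mafg, and it changed by 0.20 (adjusted p = 0.534).

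Mafk (ENSMUSG00000018143, chromosome 5, 139791513 to 139802653) was at 33.7, 39.7, 44.3, 23.8 and 62.9 CPM in control eyes and at 65.3, 52.7, 33.0, 36.7 and 69.1 CPM in Nrf2 eyes. It was higher in 4 mice and lower in mouse 3, with differences from -0.40 to 1.03, a log2 fold change of 0.33 and an SE of 0.24 (adjusted p = 0.471). Without mouse 1 the log2 fold change was 0.18 (adjusted p = 0.668), and without mouse 3 it was 0.57 (adjusted p = 0.168). Tmem184a, on the opposite strand, shares 169 bases of exon and had about as many counts as Mafk, 8894 against 9253, with a log2 fold change of -0.14.

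Maff (ENSMUSG00000042622, chromosome 15, 79346621 to 79359076), the least abundant small Maf gene, was at 2.09, 3.14, 3.56, 4.84 and 4.54 CPM in control eyes and at 4.92, 5.16, 3.16, 6.75 and 7.04 CPM in Nrf2 eyes. The rise was seen in 4 mice and not in mouse 3, and the log2 fold change of 0.56 (SE 0.23, adjusted p = 0.302) did not pass the threshold. There were 41 to 127 counts per library behind these values. Mafk and Maff shared the order of the mice in part, with the largest difference in mouse 1 and the one decrease in mouse 3.

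To ask whether relatives differed from each other, 6 pairs were compared within mice by a two-sided exact permutation test over the signs of the 5 differences, whose smallest possible p is 0.062. No pair could therefore reach 0.05. Nfe2l2 is the gene that the vector delivers, so the direction of its pair with Nfe2l1 was set by the design. The difference of Nfe2l2 was above that of Nfe2l1 in 5 of 5 mice, by 2.32 ± 0.25 on the log2 scale (SD, n = 5, exact p = 0.062, adjusted 0.188). That of Bach1 was above that of Bach2 in 5 of 5 mice, by 0.88 ± 0.42 (SD, n = 5, exact p = 0.062, adjusted 0.188), with the least difference, 0.19, in mouse 3. Among the small Maf genes the difference was 0.44 ± 0.69 for Mafg over Mafk (exact p = 0.313, adjusted 0.375), 0.22 ± 0.57 for Mafg over Maff (exact p = 0.625, adjusted 0.625) and -0.22 ± 0.23 for Mafk over Maff (exact p = 0.125, adjusted 0.25). The value for Mafg over Maff changed sign without mouse 3 (-0.01). For Keap1 over Cul3 it was 0.24 ± 0.44, positive in 3 of 5 mice (exact p = 0.313, adjusted 0.375). Mafg passed the threshold and Mafk and Maff did not, and with 5 mice this test cannot say whether they differ.

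Levels of different genes were compared per length, as counts per kilobase of the union of exons brought to the same total in each library (length-scaled TPM). In control eyes, Sqstm1 was the most abundant of the 10, at 406 ± 60.4, followed by Nfe2l1 at 160 ± 26 and Nfe2l2 at 65.3 ± 9.31 (SD, n = 5). Cul3 at 56.8 ± 21, Keap1 at 44.8 ± 1.44 and Mafk at 29.3 ± 10.4 came next, then Mafg at 18.6 ± 4.39. Maff at 3.89 ± 1.11, Bach1 at 2.55 ± 0.74 and Bach2 at 1.21 ± 0.37 were the lowest. The ranges of each gene and the next over the 5 control eyes overlapped from Nfe2l2 to Mafg and from Maff to Bach2. Within a control eye, Keap1 was above Mafk and Maff above Bach1 in 5 of 5, Nfe2l2 above Cul3, Mafk above Mafg and Bach1 above Bach2 in 4 of 5, and Cul3 above Keap1 in 3 of 5. Genes further apart did not overlap in some cases, with Nfe2l2 above Keap1, Mafk and Mafg, Cul3 above Mafg, and Maff above Bach2 in every control eye. The ranges of Sqstm1, Nfe2l1 and Nfe2l2 did not overlap, and neither did those of Mafg and Maff. In Nrf2 eyes, Nfe2l2 stood at 251 ± 39.2, above Nfe2l1 at 124 ± 28.3, whereas in control eyes it had been below it. The ratio of Nfe2l1 to Nfe2l2 was 1.53 to 3.05 in the control eyes and 0.40 to 0.60 in the Nrf2 eyes. The vector carries a human Nrf2 cDNA and reads were assigned to mouse genes, so an unknown part of its reads is counted as Nfe2l2. The level of Nfe2l2 in Nrf2 eyes, its place above Nfe2l1 and the ratio are thus only approximate. They measure neither the mouse gene alone nor all NRF2 RNA.

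**Figure D3:**
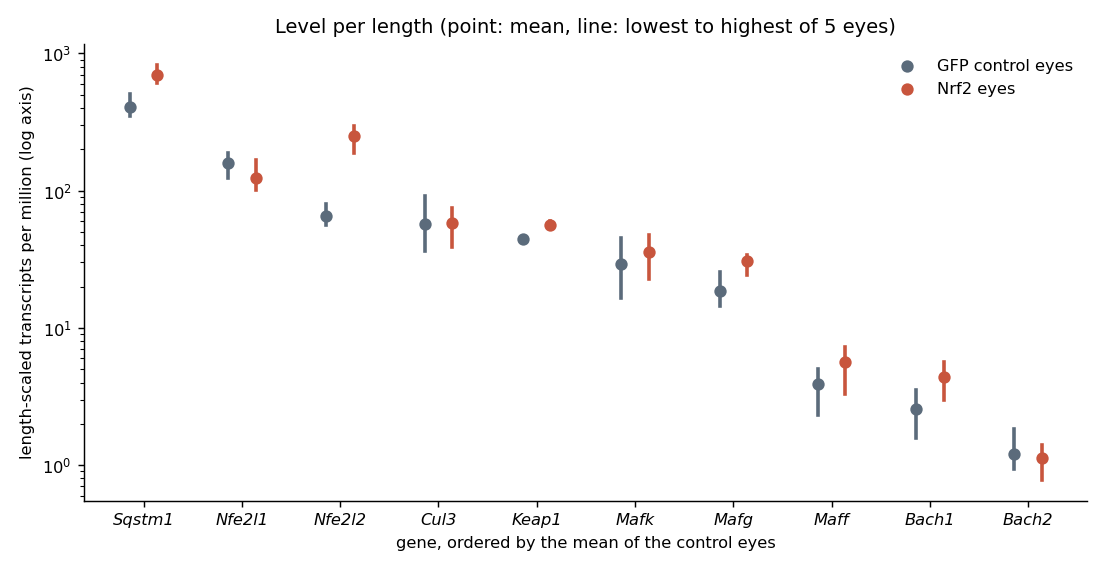
Length-scaled TPM on a log axis, with the genes ordered by the mean of the control eyes, a point at each group mean and a line from the lowest to the highest of 5 eyes. Sqstm1 leads at 406 and Bach2 is last at 1.21. Nfe2l2 lies below Nfe2l1 in control eyes and above it in Nrf2 eyes.

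The small Maf genes were then summed, since their proteins serve both NRF2 and the BACH repressors as partners. Their sum was 41.7, 51.8, 53.0, 47.2 and 65.5 length-scaled TPM in the control eyes of mice 1 to 5 and 73.9, 73.9, 60.3, 66.3 and 84.3 in their Nrf2 eyes. It was thus higher in the Nrf2 eye of each mouse, with the least difference in mouse 3, and the 2 groups overlapped at mouse 5's control eye. Mafk and Mafg made up most of the sum, at 55.6% ± 12.6 and 36.9% ± 11.1 in control eyes and 48.6% ± 10.1 and 43.6% ± 10.1 in Nrf2 eyes (SD, n = 5). The share of Mafg went up in mice 2, 3 and 5 and down in mice 1 and 4, and that of Maff was 7.50% ± 1.90 and 7.80% ± 1.99. Mafg exceeded Bach1 by a similar factor in both groups, 7.67 ± 2.15 and 7.07 ± 0.75, as both genes rose. The ratio of Bach1 to Bach2 was 2.35 ± 1.1 in control and 4.09 ± 1.32 in Nrf2 eyes, and higher in the Nrf2 eye of each mouse. The ratio of Cul3 to Keap1 was 1.27 ± 0.47 in control and 1.05 ± 0.24 in Nrf2 eyes, and it ran from 0.70 in the Nrf2 eye of mouse 1 to 2.05 in the control eye of mouse 2.

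**Figure D4:**
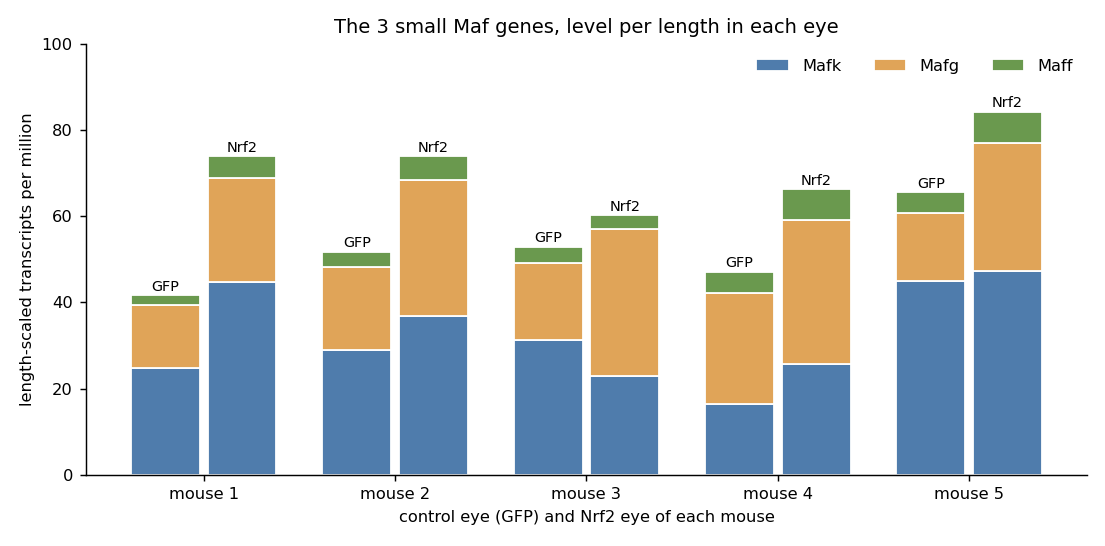
Stacked bars give the length-scaled TPM of Mafk (bottom), Mafg (middle) and Maff (top) in the control eye (left, GFP) and the Nrf2 eye (right) of each mouse, from 0. The Nrf2 bar is taller in every mouse, and the Mafk part is smaller in the Nrf2 eye of mouse 3.

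The wider pathway was read from 6 further lists. Of 36 tested genes for other control of NRF2 (the SCF ligase, kinases, deubiquitinases, coactivators), 1 was higher and 0 were lower in edgeR, and the median log2 fold change was -0.01. The 2.78% higher is below the 3.6% of all tested genes. At an unadjusted p under 0.05 there were 4 higher and 1 lower, and DESeq2 called 2 and 0. The called gene was Fyn, a Src-family kinase reported to promote export of NRF2 from the nucleus, which rose by 1.72 (SE 0.32, adjusted p = 0.0113), from 9.14 ± 4.67 to 29.6 ± 10.1 CPM. Genes that process or degrade NRF1 gave no call among 8 tested in edgeR, with 0 higher and 1 lower at an unadjusted p under 0.05 and the same numbers in DESeq2. Their median was -0.02. Of 18 genes of CUL3 adaptors and neddylation, 1 passed: Klhl22, a Kelch adaptor of CUL3 as KEAP1 is, which rose by 0.66 (SE 0.10, adjusted p = 0.0161), from 28.2 ± 5.48 to 44.4 ± 2.63 CPM, with no overlap of the groups. Its call was lost without mouse 2, without mouse 5 (adjusted p at most 0.0542) and with the rod covariate (adjusted p = 0.0764), while the log2 fold change was 0.64 to 0.77 over the 12 alternatives. The median of that list was -0.07, and 5.56% of it was higher.

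Among 19 autophagy receptors and LC3 family genes, which work with p62, the median was -0.04 and 1 gene was called. It was Tollip, a ubiquitin-binding adaptor, and it was lower in 5 of 5 mice, at 196 ± 10.6 CPM in control and 145 ± 12.8 CPM in Nrf2 eyes, or -0.46 in log2 with an SE of 0.07 (adjusted p = 0.0299). The call of Tollip was lost without any 1 of the 5 mice (adjusted p = 0.0558 to 0.162) and with the rod covariate (adjusted p = 0.130), with log2 fold changes of -0.46 to -0.39 over the 12 alternatives. This is 5.26% of the list, against 2.73% of all tested genes lower, and DESeq2 called 1 higher and 1 lower there. With at most 1 call each, these counts are too small to set the lists apart from genes at large. Of 16 tested relatives among the CNC, large Maf and AP-1 factors, 13 had a positive fold change and the median was 0.35, but 1 passed. Fosl1, a Fos-related subunit of AP-1, rose by 2.84 (SE 0.43, adjusted p = 0.00926), from 0.63 ± 0.31 to 6.17 ± 7.37 CPM, with the highest Nrf2 eye at 19.2 CPM, and its call was lost with the rod covariate (adjusted p = 0.0540), with log2 fold changes of 2.44 to 3.25 over the 12 alternatives. At an unadjusted p under 0.05, 5 of this list were higher and 0 lower. Of 17 genes that NRF2 activates and BACH1 represses or that NRF2 activates alone, 15 were higher and 0 lower, with a median of 1.99. This is 88.2% of the list, against 3.6% of all tested genes higher. At an unadjusted p under 0.05 and in DESeq2 the numbers were also 15 and 0. The 4 with the lowest p were Hmox1, which breaks down heme, Gclc, the catalytic subunit for glutathione synthesis, Srxn1, sulfiredoxin, and Txnrd1, thioredoxin reductase, with log2 fold changes of 6.12, 4.46, 4.96 and 4.10. The list of 10 regulators and partners, with the delivered gene Nfe2l2 counted in, was at 4 higher and a median of 0.46. That lay between these targets and the other lists, and its place without Nfe2l2 was not computed. Whether the lists differ was not tested.

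**Figure D5:**
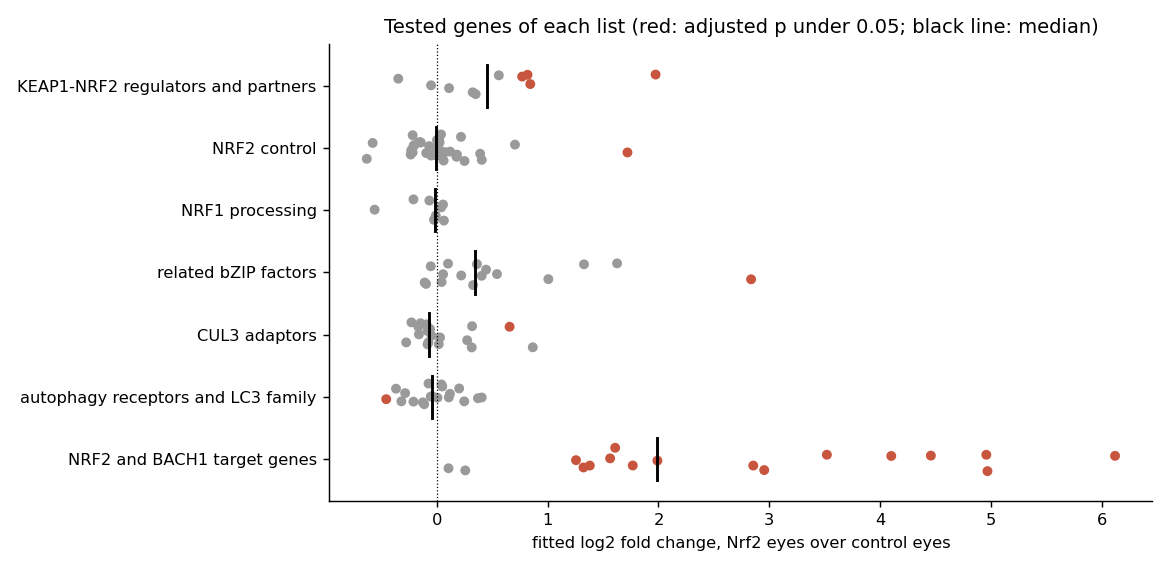
Each point is a tested gene placed by its log2 fold change, in rows by list, with red for an adjusted p under 0.05 and a black line at the median of the list. The medians of the lists for NRF2 control, NRF1 processing, CUL3 adaptors and autophagy lie near 0, that of related bZIP factors at 0.35, that of the 10 genes at 0.46 and that of the target genes at 1.99.

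The makeup of the libraries also moved with the groups. In bulk RNA, fewer cells of a type and less RNA per cell cannot be told apart. The 8 RPE markers summed to 18674 to 41058 CPM in control and 9071 to 26060 CPM in Nrf2 eyes, lower in the Nrf2 eye of 5 of 5 mice, and 5 of the 8 were lower at the threshold. Rpe65, Rgr, Lrat and Rlbp1 of the visual cycle had log2 fold changes of -2.88, -2.87, -2.26 and -1.93. Ttr, at 11543 ± 4768 and 11751 ± 5384 CPM, made up most of the sum in Nrf2 eyes and did not pass (log2 fold change 0.00), and Best1 was at about 1 CPM (0.77 ± 0.47 and 1.14 ± 0.30).

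Of 12 macrophage and microglia markers, 11 were higher, and the median log2 fold change of the list was 4.47. P2ry12, C1qa, Ctss and Cx3cr1 had 5.90, 4.91, 3.98 and 3.92. None of the 12 stayed at or under 3 counts in every library. Their summed level was 174 to 292 CPM in control and 435 to 2173 CPM in Nrf2 eyes, but Csf1r alone held 196 ± 50.5 CPM of it in control eyes and 142 ± 58.9 CPM in Nrf2 eyes. Without Csf1r, which was left out after its values were seen, the sum was 37.6 to 66.0 CPM in control and 374 to 1951 CPM in Nrf2 eyes.

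The log2 increase of that sum in mice 1 to 5 was 3.76, 3.01, 4.01, 4.64 and 5.67. In the same order, Bach1 differed by 1.08, 0.67, 0.72, 0.89 and 0.82, Sqstm1 by 0.46, 0.81, 0.98, 0.92 and 0.92, and Mafg by 0.91, 0.77, 0.99, 0.29 and 0.89. The part of these cells in the differences of Bach1, Sqstm1, Mafg, Fyn, Fosl1 and the target genes of NRF2 and BACH1 was not tested. Rod markers summed to 32.8 to 17266 CPM in control and 55.3 to 6643 CPM in Nrf2 eyes, the highest of each in mouse 2. The sum was lower in the Nrf2 eye of 4 of 5 mice, and the 7 tested rod genes all had negative fold changes (median -1.09), with 0 past the threshold in edgeR, 0 at an unadjusted p under 0.05 and 0 in DESeq2. Without mouse 2, Nfe2l2, Sqstm1 and Mafg passed (log2 fold change 1.98, 0.86 and 0.81) and Bach1 did not (0.92, adjusted p = 0.0746). The cone sum was lower in the Nrf2 eye of 5 of 5 mice, with negative fold changes for all 5 cone genes, although its range overlapped between the groups. The sums of the endothelium, fibroblast, muscle and inner retina neuron markers also overlapped. None of the genes of these lists passed the threshold in edgeR. At an unadjusted p under 0.05, 3 cone genes and 1 inner retina gene were lower and 0 were higher, and DESeq2 called 1 cone gene and 1 inner retina gene lower.

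Genes with the most similar pattern were named by the root mean square distance between the 5 within-mouse log2 differences. For Nfe2l2 these were the processed pseudogene Gm12164 (distance 0.26), Pgd (0.31), an enzyme of the pentose phosphate pathway, and Esd (0.32), an esterase. For Bach1 they were the glutathione transferase gene Gstm6 (0.13, not past the threshold itself), B3galnt2 (0.14) and Edem2 (0.15). For Sqstm1 they were Nucb2 (0.12), Pigk (0.12) and Ninj1 (0.15).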

How the data were processed

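RPE RNA of 10 eyecups was amplified and sequenced in 2 runs. Which library was in which run is not given in the sources used here, so no run term was fitted. Per the labels and the values, the deposited table gives counts for each Ensembl gene as whole numbers, not normalized by the authors. The authors aligned reads with STAR to mm10 with Ensembl transcripts, counted them with featureCounts and, in parallel, ran Salmon (0.8.2 in the submitters' processing notes). Which of these gave the table, the aligner version and the strand setting are not given in the sources used here, so overlapping genes are uncertain. The table held 0 columns of other samples.

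Symbols, positions and exon lengths came from GENCODE M21 (GRCm38, mm10), which covered 99.1% of gene identifiers. Promoters came from RefSeq (GRCm38.p6). Eyes were paired by the animal number in the labels. Deviations from the group means correlated within mice at r = 0.19 to 0.71 across genes, and at -0.42 to 0.28 (median -0.08) between mice. Tests used edgeR 4.0.16 in R 4.3.3 (filterByExpr, TMM, quasi-likelihood F test, mouse as a block). Within-mouse differences are of log2 CPM with a prior count of 2. The fit was also run on simulated counts with known changes. These were drawn without differences between mice or in cell makeup, so that run does not show how the fit performs on these eyes. CPM intervals were not computed, since amplified reads are not independent molecules. Genes named are the 10 chosen, the called genes of each list (at most 4, by p) and the 3 nearest in pattern of 3 genes. Genes that overlap them, Pax5, Csf1r, Ttr and Best1 were named outside this rule, after their values were seen. The genes and lists were chosen with earlier results of these data known. Alternatives were no block, DESeq2 1.42.0, its size factors, library totals alone, filters, a rod covariate, each mouse left out, a prior count of 0.5 and transcript length.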

Additional observations from a re-analysis of the deposited data

How the results depend on the processing

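Nfe2l2, Sqstm1 and Mafg kept their direction and their call in all 12 alternatives, with log2 fold changes of 1.89 to 2.06, 0.77 to 0.94 and 0.74 to 0.92. Bach1 kept its direction in all 12 but its call in 5. Nfe2l1, Cul3, Mafk and Maff kept their direction and did not pass in any. Bach2 changed sign without mouse 1 (0.02), without mouse 2 (0.0265) and without mouse 5 (0.03), was between -0.139 and 0.0265 over the left-out mice, and never passed. Keap1 passed under DESeq2 and without the block only.

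The count of genes past the threshold, 1036, was 1803 under DESeq2, and 500 with the rod covariate, and the cause was not tested. Leaving out each mouse gave 584 to 857, with 584 without mouse 2, 613 without mouse 4 and 683 without mouse 5, where fewer samples enter. The lower calls shrank more than the higher ones, to 411 higher and 173 lower without mouse 2, 392 and 221 without mouse 4, 523 and 232 without the block, and 332 and 168 with the rod covariate. In the fit without the replicate block, 755 genes passed, 687 of them shared. Of the 10 genes, 3 to 5 passed under every alternative, 3 without any 1 mouse, and 16 to 23 genes of the other pathway lists did, against 19, with 0 to 2 of them lower. Fyn kept its call in all 12, Fosl1 in 11, Klhl22 in 9 and Tollip in 6. With the longest transcript as length, Nfe2l2 was at 79.2 length-scaled TPM in control eyes in place of 65.3, and the other levels moved by less than 1 SD. The differences between relatives also stayed within 1 SD of the 5 mice, which is wide for some pairs. Mafg over Mafk ran from 0.21 without mouse 3 to 0.62 without mouse 4. Keap1 over Cul3 ran from 0.13 without mouse 1 to 0.36 without mouse 3. Maff, Bach1 and Bach2 rest on the fewest counts. None of 30 groups of 5 values held a library far from the others, where chance would give about 1.5.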
